A study of Capra hircus with 2 samples.

Results

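MicroRNAs (miRNAs) of the miR-23, miR-24 and miR-27 clusters were examined in 2 small RNA libraries, 1 from CD49f-positive and 1 from CD49f-negative cells from the testes of Saanen dairy goats at the age of 5 months. Members were all entries named miR-23a, miR-23b, miR-24, miR-27a or miR-27b in any mammal, whichever hairpin arm or locus they came from. They made up 22 of 2599 listed entries in the CD49f-positive library, against 22 of 2338 in the CD49f-negative library, or 10 of 1814 names of miRNA arms over both. CD49f, the alpha-6 chain of integrins, sits on the cell surface and serves as a handle to enrich spermatogonial stem cells. The cells of both groups came from 3 testes of 3 goats and had not attached during a night of plating, a step meant to deplete Sertoli and myoid cells, before they were separated with magnetic beads. Each group had 1 library, and it is not stated whether the goats were pooled, so the differences below lack any replicate check and carry no p-value. In such mixed cells, fewer cells of a type and less RNA per cell cannot be told apart.

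Mammals carry these miRNAs in a pair of duplicated clusters. The a cluster holds miR-23a, miR-27a and miR-24-2, the b cluster holds miR-23b, miR-27b and miR-24-1, and each is usually transcribed as 1 primary RNA that is then cut into hairpins. The 3p arm of each hairpin is the strand mainly loaded into the silencing complex, and the 5p arm is the passenger strand. In mouse and human cells miR-23 and miR-27 are known for roles in blood vessel growth, miR-27 also represses genes of fat cell formation, and miR-24 targets the histone variant that marks DNA breaks.

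In the authors' files the a cluster lay on goat chromosome 7 and the b cluster on goat chromosome 8, both on the plus strand. The genome build is not given in the sources used here. The b cluster ran from miR-23b (79770211 to 79770297) over miR-27b (79770429 to 79770532) to miR-24-1 (79770982 to 79771061), a span of 851 bases. The a cluster ran from miR-23a (8912856 to 8912930) over miR-27a (8913031 to 8913113) to miR-24-2 (8913185 to 8913265), a span of 410 bases. The gap before miR-24 was 449 bases in the b cluster and 71 bases in the a cluster. Hairpin GC content was 49.4% to 53.8% in the b cluster and 54.3% to 62.7% in the a cluster. In the RefSeq annotation of another assembly, ARS1.2, the genes of miR-23b, miR-27b and miR-24 lie within the span of C8H9orf3, and those of miR-23a and miR-27a within that of ZSWIM4.

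**Figure D1:**
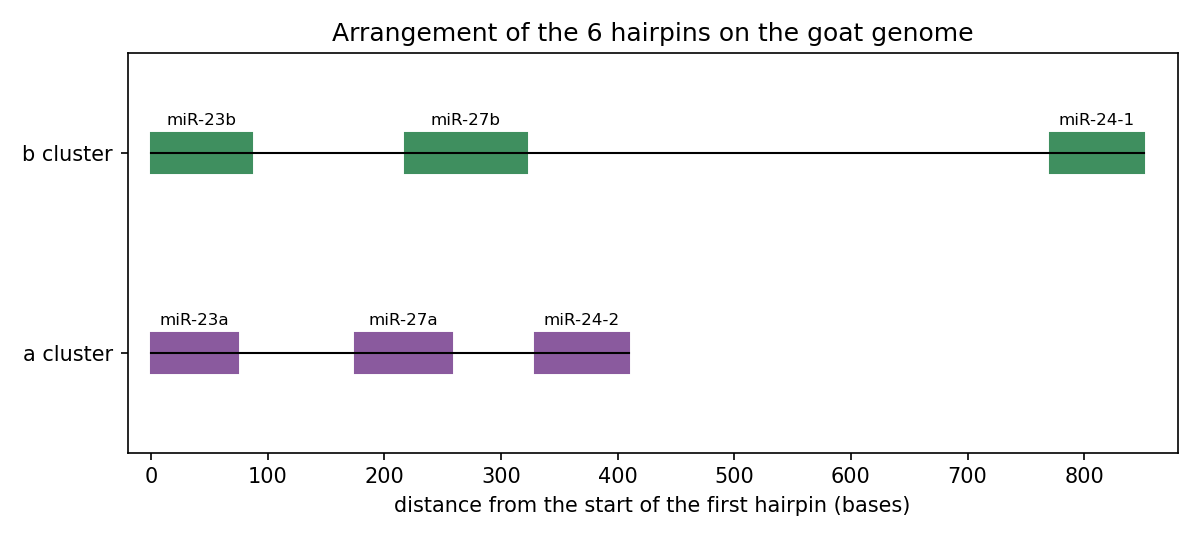
Position of the 6 hairpins in bases from the start of the first hairpin of each cluster, drawn to scale, with the b cluster above the a cluster. The order miR-23, miR-27, miR-24 was the same in both, over 851 bases in the b cluster and 410 bases in the a cluster.

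The mature sequences show which members can be told apart by their reads. They are given as listed in the files for the matched known miRNA of cattle or pig, in DNA letters, 5′ to 3′, with the seed (bases 2 to 8), the main determinant of target pairing, in capitals.
miR-23b-3p: aTCACATTgccagggattaccac
miR-23a-3p: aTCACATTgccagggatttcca
miR-27b-3p: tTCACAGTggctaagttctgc
miR-27a-3p: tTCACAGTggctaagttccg
miR-24-3p: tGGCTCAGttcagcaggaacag
miR-24-1-5p (b cluster): gTGCCTACtgagctgatatcagt
miR-24-2-5p (a cluster): gTGCCTACtgagctgaaacacagt
Counted from the 5′ end, miR-23a-3p and miR-23b-3p differed at T19A over 22 compared bases, and miR-27a-3p and miR-27b-3p at C19T over 20. The a and b members of each pair thus had the same seed. The seeds of miR-23 and miR-27 differed from each other by a single base, T7G, counted within the miRNA. The 3p arm of miR-24 had the same sequence at both loci. Compared base by base from the 5′ end without gaps, its 5p arms, of 23 and 24 bases, differed at 6 of 23 positions. Part of these differences comes from the unequal length. Outside the members, the seed of miR-23 was listed for miR-23c, with 2 reads in each library, and the seeds of miR-27 and miR-24 for no other name.

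The hairpins of the miR-27 pair, whose reads differ most between the clusters, are shown as the files give them for the goat genome, with the first 20 bases of the 3p arm in capitals.
miR-27b hairpin: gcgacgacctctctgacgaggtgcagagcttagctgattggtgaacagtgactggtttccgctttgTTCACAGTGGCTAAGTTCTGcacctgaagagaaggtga
miR-27a hairpin: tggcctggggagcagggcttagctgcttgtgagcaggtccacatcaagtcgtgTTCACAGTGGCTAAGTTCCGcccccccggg
The miR-27b hairpin, of 104 bases, had a listed folding energy of -50.2 kcal/mol, and that of miR-27a, of 83 bases, one of -42.8 kcal/mol.

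Reads under a miRNA name numbered 8196507 for CD49f-positive and 3064462 for CD49f-negative cells, so that the CD49f-positive library was 2.67 times deeper. The reads are expected counts, since the authors split a read that fits several hairpins between them. All members together took 1.71% of named miRNA reads in the CD49f-positive library (95% Clopper-Pearson interval 1.70 to 1.72), against 1.93% in the CD49f-negative library (1.91 to 1.94). The log2 ratio of these shares was -0.17 (-0.18 to -0.16), but 0.18 and 0.65 on TMM scales described below, so its sign depended on the scaling. Intervals here and below describe counting error alone and treat reads as independent. Amplified reads that carry no molecular identifier are not independent, so the intervals can be too narrow. Entries not listed at the goat's known hairpins, 11 in each library, held 73 reads in the CD49f-positive and 41 in the CD49f-negative library, 0.0521% and 0.0695% of the members' reads. Of these, 17 and 8 reads were listed as miR-27b in a longer stretch of chromosome 8 that encloses the miR-27b hairpin.

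miR-27b-3p and miR-24-3p were the most abundant members in both libraries. miR-27b-3p had 52657 reads in the CD49f-positive library, 0.642% of the total (0.637 to 0.648), and 22936.5 reads in the CD49f-negative library, 0.748% (0.739 to 0.758). It ranked 17 among all names in each. miR-24-3p, the product of both clusters, had 55154 reads or 0.673% in the CD49f-positive library, against 21983 reads or 0.717% in the CD49f-negative library, at ranks 16 and 19. miR-24-3p had 1.05 times the reads of miR-27b-3p in CD49f-positive cells (1.03 to 1.06, exact binomial interval) and 0.958 times in CD49f-negative cells (0.941 to 0.976). This change of order was not seen without mismatched reads. Over reads with no mismatch miR-24-3p had 1.06 times the reads of miR-27b-3p in CD49f-positive cells (1.04 to 1.07), and 18731 against 18658 reads in CD49f-negative cells, a ratio whose interval (0.984 to 1.02) includes equal numbers. By the most abundant sequence of each arm miR-24-3p was above miR-27b-3p in both libraries, with 46474 against 27017 copies in CD49f-positive and 17828 against 12499 in CD49f-negative cells.

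The miR-23 arms were close to each other. miR-23a-3p had 13341.5 reads, 0.163% (0.160 to 0.166), in the CD49f-positive library, against 5052.5 reads, 0.165% (0.160 to 0.169), in the CD49f-negative library. miR-23b-3p had 11761.5 reads, 0.143% (0.141 to 0.146), in the CD49f-positive library, against 4940 reads, 0.161% (0.157 to 0.166), in the CD49f-negative library. The intervals of both miR-23 arms overlapped in the CD49f-negative library and did not in the CD49f-positive one.

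miR-27a-3p was the least abundant 3p arm in both libraries. It had 6666 reads, 0.0813% (0.0794 to 0.0833), in the CD49f-positive library, against 3827.5 reads, 0.125% (0.121 to 0.129), in the CD49f-negative library. The members' shares therefore spanned from miR-27a-3p to miR-24-3p in the CD49f-positive library, against from miR-27a-3p to miR-27b-3p in the CD49f-negative library.

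The passenger arms were rare. miR-24-5p had 271 reads in the CD49f-positive and 127 in the CD49f-negative library, miR-27a-5p 227 and 110, and miR-27b-5p 113 and 41. miR-23b-5p had 34 reads in the CD49f-positive and 4 in the CD49f-negative library. miR-23a-5p was listed with 0 reads in the CD49f-positive library, which allows a share of up to 3.66e-05% (3 reads of the total), and with 1.5 mismatched reads outside the goat hairpins in the CD49f-negative library.

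**Figure D2:**
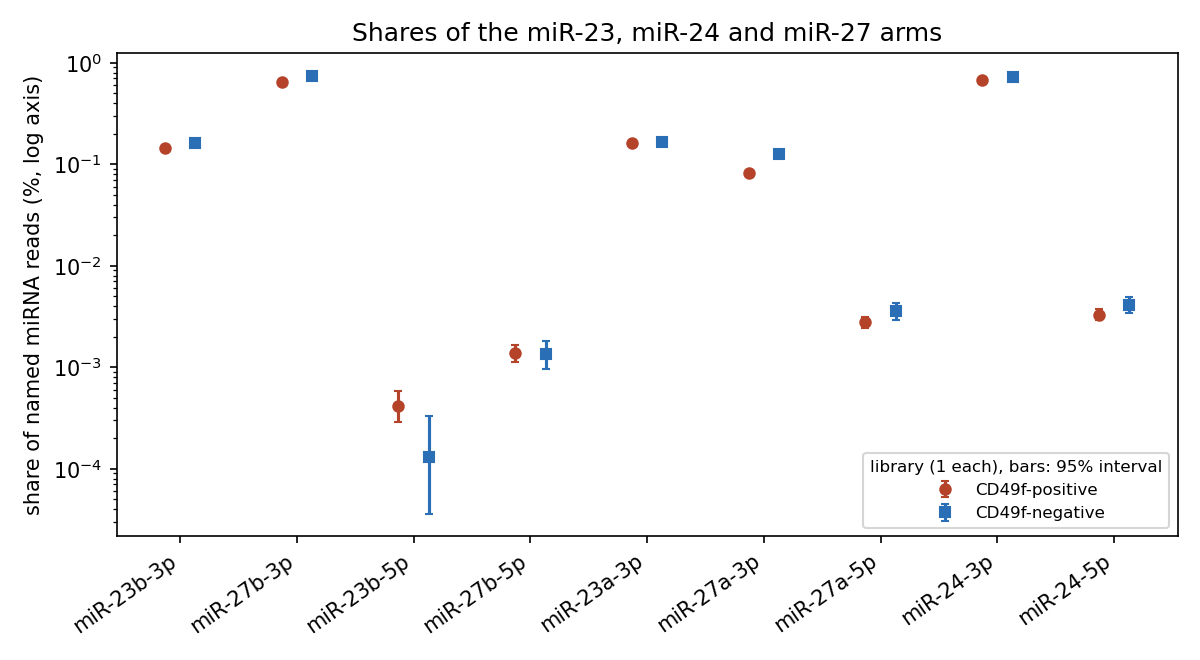
Share of named miRNA reads (percent, log axis) of 9 member arms in the CD49f-positive (circles) and CD49f-negative (squares) library, 1 library each, with 95% Clopper-Pearson intervals. The 3p arms lie between 0.0813% and 0.748%, the 5p arms under 0.01%, and the CD49f-positive circle of miR-27a-3p lies visibly below its square.

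The members were set against each other in CD49f-positive over CD49f-negative cells by the ratio of their shares. To be called, a miRNA needed 100 reads over both libraries, a ratio past 2-fold and an interval clear of equal shares. Of the 10 arms 8 had 100 reads, and 0 of the 8 were called, while this rule called 26.6% of the 301 names with 100 reads (80 names). Their log2 ratios had a median of -0.19, against -0.43 for all 301 names. miR-23a-5p and miR-23b-5p fell under the minimum of reads.

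miR-27a-3p had the lowest ratio of the 8 arms, at -0.62 on the log2 scale (-0.68 to -0.56), which makes its share 1.54 times lower in CD49f-positive cells. The passenger arm of its hairpin, miR-27a-5p, was at -0.38 (-0.71 to -0.03). The other 3p arms lay nearer to equal shares, with miR-27b-3p at -0.22 (-0.24 to -0.20), miR-23b-3p at -0.17 (-0.22 to -0.12), miR-24-3p at -0.09 (-0.11 to -0.07) and miR-23a-3p at -0.02 (-0.07 to 0.03). miR-24-5p was at -0.33 (-0.64 to -0.01) and miR-27b-5p at 0.03 (-0.48 to 0.60). The intervals of miR-27a-5p, miR-24-5p and miR-27b-5p all include the value of miR-27b-3p, so their depth does not separate these 5p arms from it.

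All but 1 of the 8 ratios were below 1 when shares of the read total were compared, and this direction depended on the scaling. TMM scaling averages log ratios over names after those with the most extreme ratios or abundances are left out. It added 0.82 to every log2 ratio when computed over all names and 0.35 over the names with at least 100 reads. Median-of-ratios scaling added 0.83 and 0.44. All 8 ratios were above 1 with TMM over all names, and 6 of 8 with TMM over names with 100 reads, where miR-27a-3p stayed below 1 at -0.27 and miR-27a-5p was at -0.03. On both TMM scales 0 of 8 arms were called, beside 21.3% of all names on either. With the median of ratios 0 of 8 were called as well, beside 21.6% of names with factors over all names and 21.9% with factors over names with 100 reads. The members' median was 0.63 with TMM over all names and 0.15 with TMM over names with 100 reads, and that of all 301 names 0.39 and -0.08.

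**Figure D3:**
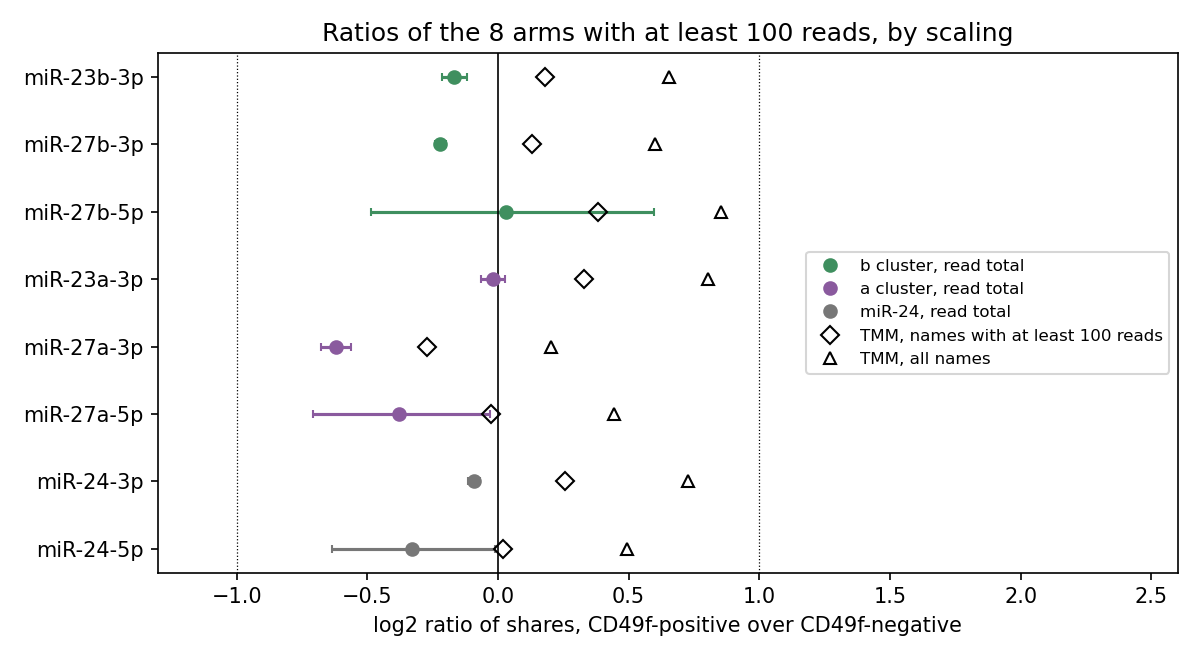
Log2 ratio of shares, CD49f-positive over CD49f-negative, of the 8 arms with at least 100 reads, as shares of the read total (filled circles, 95% interval for counting error) and on a TMM scale over names with 100 reads (diamonds) or all names (triangles); dotted lines mark 2-fold. miR-27a-3p is the leftmost 3p arm on each scale, and no arm reaches 2-fold on any.

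Ratios between members within a library do not depend on how libraries are scaled, and they were used to set the b cluster against the a cluster. miR-23b and miR-27b, both arms summed, had 64565.5 reads and miR-23a and miR-27a 20234.5 in the CD49f-positive library, a ratio of 3.19. In the CD49f-negative library they had 27921.5 and 8991.5 reads, a ratio of 3.11. In both libraries most reads of the b sum were miR-27b-3p and most of the a sum miR-23a-3p, so these ratios largely compare unlike miRNAs. In the CD49f-positive library these arms had 52657 and 13341.5 reads. The log2 difference between the b over a ratios of the libraries was 0.04 (-0.0019 to 0.080), an interval that just includes no difference. With reads that fit both hairpins left out it was 0.04 as well, with an interval that just excludes no difference (0.0022 to 0.086). It turned to -0.15 (-0.21 to -0.10) when the most abundant listed sequence of each arm stood for the arm.

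The pairs of paralogues within this sum differed in opposite directions. miR-27b-3p exceeded miR-27a-3p 7.90 times in the CD49f-positive library, against 5.99 times in the CD49f-negative library, a log2 difference of 0.40 (0.34 to 0.46). The ratio of miR-23b-3p over miR-23a-3p was 0.882 in the CD49f-positive library, against 0.978 in the CD49f-negative library, a log2 difference of -0.15 (-0.22 to -0.08). Both differences exceeded counting error with reads taken as independent, and whether they exceed the spread between goats cannot be told from 1 library each.

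The ratio of miR-27 to miR-23 differed between the libraries more in the a cluster than in the b cluster. miR-27a-3p had 0.50 reads per read of miR-23a-3p in the CD49f-positive library, against 0.758 in the CD49f-negative library, a log2 difference of -0.60 (-0.67 to -0.53). miR-27b-3p had 4.48 reads per read of miR-23b-3p in the CD49f-positive library, against 4.64 in the CD49f-negative library, a log2 difference of -0.05 (-0.11 to 0.00046). The difference between the clusters in this respect was -0.55 (-0.64 to -0.46, Wald interval on 8 counts). It rearranges the same 8 counts as the paralogue differences above and is not a separate result. Over reads with no mismatch the differences were -0.64 (-0.73 to -0.56) in the a cluster and 0.03 (-0.02 to 0.09) in the b cluster.

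**Figure D4:**
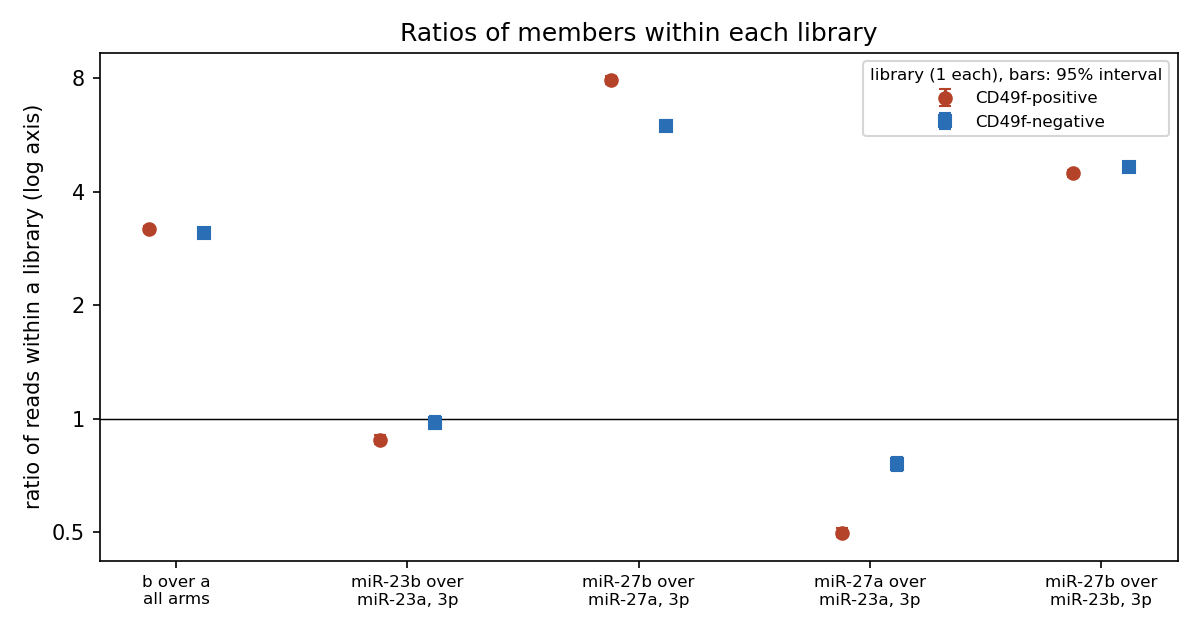
Ratio of reads between members within each library (log axis), in the CD49f-positive (circles) and CD49f-negative (squares) library, with 95% exact binomial intervals. The b over a ratio of all arms is 3.19 and 3.11, while miR-27b over miR-27a is 7.90 and 5.99 and miR-27a over miR-23a is 0.50 and 0.758.

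miR-24 can be assigned to a cluster only through its passenger arms. All reads of miR-24-3p at the goat hairpins fitted both loci and had been divided evenly between them, 27574 at miR-24-1 and 27575 at miR-24-2 in the CD49f-positive library, against 10988.5 at each in the CD49f-negative library. This division carries no information on the clusters. The 5p arm of the b locus, miR-24-1, had 104 reads in the CD49f-positive library, against 59 in the CD49f-negative library, and that of the a locus, miR-24-2, had 166 and 67. The b locus thus gave 38.5% of miR-24-5p reads in the CD49f-positive library (32.7 to 44.6), against 46.8% in the CD49f-negative library (37.9 to 55.9). The log2 difference of the b over a ratio was -0.49 (-1.10 to 0.12), or -0.64 (-1.32 to 0.04) over reads with no mismatch, so no difference was detectable at this depth.

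The 5p arms of the miR-27 hairpins gave the opposite order of the clusters from their 3p arms. miR-27b-5p had 0.50 reads per read of miR-27a-5p in the CD49f-positive library, against 0.364 in the CD49f-negative library at the goat hairpins, a log2 difference of 0.45 (-0.16 to 1.06). The b hairpin was therefore the source of more 3p reads and the a hairpin of more 5p reads in both libraries. The 5p arm took 0.214% of the reads of the miR-27b hairpin in the CD49f-positive library (0.177 to 0.258), against 0.174% in the CD49f-negative library (0.124 to 0.237). For the miR-27a hairpin it took 3.28% (2.87 to 3.73) and 2.79% (2.30 to 3.36). For miR-23b the 5p arm held 34 of the hairpin's reads in the CD49f-positive library, or 0.289% (0.200 to 0.404), and 3 in the CD49f-negative library, or 0.0608% (0.0125 to 0.178). These intervals do not overlap, and the summed miR-23b-5p had a log2 ratio of shares of 1.52 (0.18 to 3.62), under the minimum of reads.

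Because the paralogues differ by a base near the 3′ end, reads that stop short of it fit both. Whether the shared reads stopped there or fitted both through a mismatch was not tested. Shared reads were counted from the files as the excess of a hairpin's whole reads over its split ones, taken as reads of the 3p arm. For miR-27 they numbered 2148 in the CD49f-positive library, divided evenly, and made up 16.1% of miR-27a-3p and 2.04% of miR-27b-3p. In the CD49f-negative library they numbered 879, or 11.5% of miR-27a-3p and 1.92% of miR-27b-3p. Without shared reads the log2 difference of miR-27b over miR-27a between the libraries was 0.47 (0.41 to 0.54), against 0.40 with them. For miR-23 they numbered 169 in the CD49f-positive and 76 in the CD49f-negative library, under 1% of each arm.

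miR-27a-3p also stood apart in its mismatches. Mismatched reads made up 31.6% of miR-27a-3p in the CD49f-positive library, against 34.4% in the CD49f-negative library. For the other 4 3p arms this share ran from 6.01% (miR-23a-3p) to 13.6% (miR-23b-3p) in the CD49f-positive library, against from 12.5% (miR-23a-3p) to 18.7% (miR-27b-3p) in the CD49f-negative library. Over all named reads it was 32.7% and 36.0%, values raised by abundant names with many mismatches. miR-100-5p, with 25.4% of reads in each library, had 58.8% mismatched in the CD49f-positive and 55.5% in the CD49f-negative library. miR-143-3p, with 22.1% and 18.4% of reads, had 43.6% and 45.1% mismatched. Reads of miR-27a-3p with no mismatch numbered 4558.5 in the CD49f-positive and 2510 in the CD49f-negative library, with a log2 ratio of -0.63 (-0.70 to -0.56), close to that over all its reads.

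**Figure D5:**
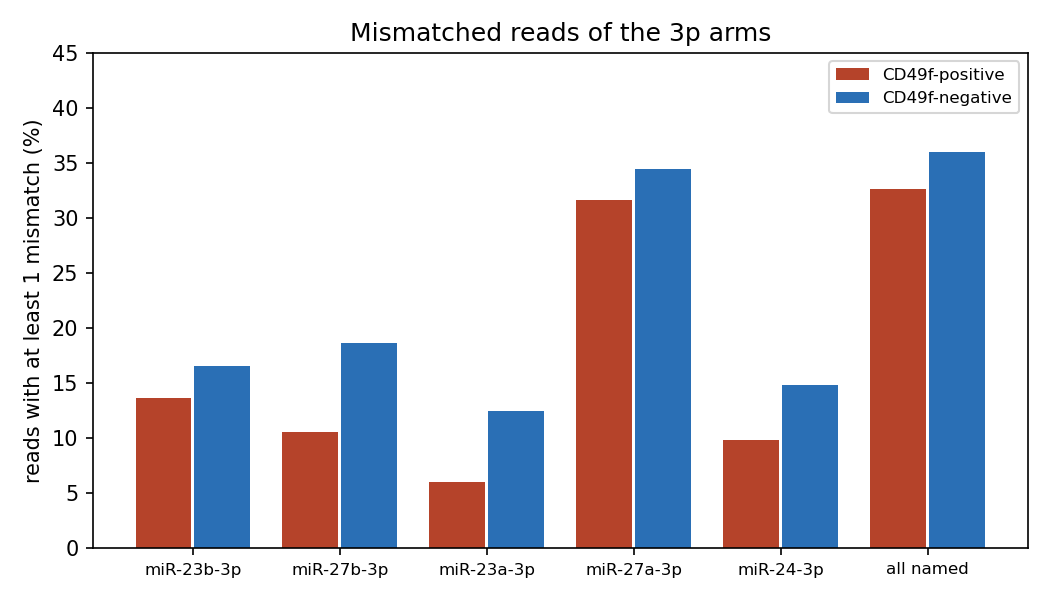
Percent of reads with at least 1 mismatch, for the 3p arms and all named miRNA reads, in the CD49f-positive (left bar) and CD49f-negative (right bar) library. miR-27a-3p, at 31.6% and 34.4%, lies near the value of all named reads, and the other arms lie below 19%. The value of all named reads is raised by the abundant miR-100-5p and miR-143-3p, which have higher mismatch shares.

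The listed end of miR-27a-3p differed between the libraries. Its most abundant sequence had 20 bases and 2099 copies in the CD49f-positive library, against 21 bases and 1191 copies in the CD49f-negative library, where it ran 1 base further.
CD49f-positive: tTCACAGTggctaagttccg
CD49f-negative: tTCACAGTggctaagttccgc
These made up 31.5% and 31.1% of the arm's reads. For miR-27b-3p, miR-23a-3p, miR-23b-3p and miR-24-3p the same sequence was listed in both libraries. That of miR-27b-3p held 51.3% of the arm's reads in the CD49f-positive and 54.5% in the CD49f-negative library, and that of miR-24-3p, with 46474 and 17828 copies, 84.3% and 81.1%. A comparison of miR-27a by its most abundant sequence thus sets a sequence of 20 bases against one of 21.

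Few non-member reads came from the loci. On the opposite strand of the miR-24 hairpins, entries named miR-3074 held 1 read in the CD49f-positive library, split between the loci, and 2 mismatched reads in the CD49f-negative library, under the 3 reads that a count of 0 allows. No unnamed entry lay within 10000 bases of either cluster.

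Among the 292 other arms with 100 reads and listed in both libraries, those nearest to each member in log2 share over the 2 libraries were looked up. miR-103-3p, at 0.163% in the CD49f-positive and 0.153% in the CD49f-negative library, was nearest to miR-23a-3p (distance 0.10). miR-199a-5p, at 0.133% and 0.156%, was nearest to miR-23b-3p (0.12). miR-191-5p, at 0.628% and 0.821%, was nearest to miR-27b-3p (0.14) and to miR-24-3p (0.22), and miR-192-5p, at 0.0812% and 0.0994%, was nearest to miR-27a-3p (0.33).

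Markers of several cell types differed between the libraries too, and all 18 marker miRNAs were listed. Their values compare shares of the read total. TMM scaling would add 0.82 (over all names) or 0.35 (over names with at least 100 reads) to each log2 ratio. The meiotic and post-meiotic germ cell miRNAs miR-34b, miR-34c and miR-449a summed to 2.25% of CD49f-positive and 11.4% of CD49f-negative reads. The endothelial miR-126 and miR-139 summed to 1.44% and 0.757%. miR-143 and miR-145 of smooth muscle and myoid cells summed to 22.6% of CD49f-positive and 18.9% of CD49f-negative reads, nearly all of them miR-143-3p (22.1% and 18.4%). The arms of this list went both ways, since miR-145-3p had a log2 ratio of 0.56, while miR-143-5p was at -0.76 and miR-145-5p at -1.24 (0.123% of CD49f-positive and 0.289% of CD49f-negative reads), the only arm of the list that was called. On neither TMM scale was miR-145-5p called, at -0.42 over all names and -0.89 over names with at least 100 reads. Sertoli cell miR-202 held 0.0320% and 0.0823%, and the red blood cell list 0.296% and 0.372%. The white blood cell list held 0.0177% and 0.0217%, with miR-142-5p at -0.79 and miR-142-3p at -0.96 but miR-155-5p at 0.59 (0.35 to 0.85), with 687 reads in the CD49f-positive and 170 in the CD49f-negative library. The epithelial list held 0.00314% and 0.00930%. The part of these differences in the values of miR-27a-3p and the other members was not tested.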

How the data were processed

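Small RNA was sequenced from 1 library of CD49f-positive and 1 of CD49f-negative cells, grouped by their labels. Per the file headers and column notes, reads had been mapped by the authors to miRBase hairpins of mammals, to expressed sequences and to a goat genome. Aligner, database release and build are not stated there. Reads per arm are expected counts as deposited by the authors, with shared reads split, and copies of listed sequences are deposited whole counts. Hairpin GC content is a percent and folding energy a score, per the file headers.

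Entries were summed per name and arm, without species prefix and copy number. Unnamed entries, 0.555% of listed CD49f-positive and 0.611% of CD49f-negative reads, were left out. Ratios are of shares of named reads with 0.5 reads added. Their 95% intervals are exact (Clopper-Pearson, conditional on the sum of rounded counts), and those of differences between ratios are Wald intervals on the 4 counts. The floor for 0 reads was 3. With 1 library per group no test was run. Both calculations were tested on simulated counts drawn as independent, as the intervals assume. These counts hold neither duplicated amplified reads nor a spread between goats, so they cannot check either limit. Alternatives covered scaling (edgeR 4.0.16, DESeq2 1.42.0, for factors only, in R 4.3.3), mismatches, known hairpins, the most abundant sequence, priors and read minimums. Other steps ran in Python 3.11.15 with SciPy 1.17.1, pandas 2.3.3, numpy 2.4.6 and matplotlib 3.10.9. Named are all members, 18 markers and the nearest non-member of each member. Members and lists were chosen with earlier results of these data known.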

Additional observations from a re-analysis of the deposited data

How the results depend on the processing

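The count of members called was 0 under 10 of 12 other settings, with 8 arms meeting the read minimum in each but the most abundant sequence alone, where 6 did. Among these settings a 4-fold rule could call no arm once the 2-fold rule had called none, so its count carries no information. The share of all names called is given above only for the TMM and median-of-ratios settings. The other counts of 0 therefore cannot be set against a background. It was 1 with a minimum of 10 reads or none, where 9 and 10 arms were eligible and miR-23b-5p (38 reads) was called. The share of all names called with these lower minimums is not given, so this call cannot be set against a background. The summed ratios changed sign with scaling. For the b cluster the log2 ratio was -0.21 and became 0.61 with TMM, 0.62 with the median of ratios, 0.071 without the 10 most abundant names, -0.16 over reads with no mismatch and -0.42 with the most abundant sequence alone. For the a cluster it was -0.25 and became 0.57, 0.59, 0.032 and -0.19 under the first 4 of these. For miR-24 it was -0.09 and became 0.73, 0.74 and 0.19 under the first 3, and -0.18 with the most abundant sequence alone. Factors over names with at least 100 reads, added after the data were seen, gave 0.14 (TMM) and 0.23 (median of ratios) for the b cluster, 0.10 and 0.19 for the a cluster, and 0.26 and 0.34 for miR-24. The b over a difference of 0.04 became -0.15 with the most abundant sequence alone, and without shared reads its interval, 0.0022 to 0.086, excluded no difference. The log2 ratio of miR-24-3p over miR-27b-3p was 0.07 in the CD49f-positive library and became 0.78 with the most abundant sequence alone, and in the CD49f-negative library it was -0.06 and became 0.0056 with no mismatch and 0.51 with the most abundant sequence alone, settings added later. The miR-27 difference of 0.40 became 0.48 with no mismatch, 0.29 with the most abundant sequence alone, where the listed miR-27a-3p sequences differ in length, and 0.47 without shared reads, also added later. The cause of the other shifts was not tested. The miR-23 difference of -0.15 ranged within its interval under the 5 settings run. Of the 8 arms, 7 changed sign with TMM over all names and 0 with known hairpins only. No paired analysis was possible because each group has 1 library. With 1 library per group, depth limits counting error alone, and the spread between goats is unknown.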
